A study of Mus musculus with 10 samples.

Results

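The 10 genes described here encode enzymes that break down branched-chain amino acids or move amino nitrogen between carbon skeletons. They are Bcat2, Bckdha, Bckdhb, Dbt, Bckdk, Gpt, Gpt2, Got1, Glul and Prodh, listed by name among the 26180 mouse genes with curated RefSeq transcripts (GRCm38). A peak was assigned to a gene when its midpoint lay in the gene body or within 30 kb of a transcription start site (TSS) of that gene. The data are chromatin immunoprecipitation sequencing (ChIP-seq) peak lists of the glucocorticoid receptor (GR), lysine-specific demethylase 1 (LSD1) and mono- or dimethylated lysine 9 of histone H3 (H3K9me1, H3K9me2) in skeletal muscle of C57BL/6J mice. The fed group was compared with a group starved for 24 h. According to the labels all mice were 10 weeks old, whereas the text of the study gives another age, and the study used males. Neither the labels of the fed nor those of the starved libraries name a genetic change or a drug. Each antibody and condition had 1 library, and 2 input libraries entered through peak calling. There was therefore no replicate error and no test between conditions, and differences below compare libraries.

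Skeletal muscle is a main site of branched-chain amino acid breakdown. Bcat2 transfers the amino group of leucine, isoleucine and valine to 2-oxoglutarate, and the branched-chain ketoacid dehydrogenase complex then oxidizes the remaining ketoacids in an irreversible step that the kinase Bckdk restrains. The glutamate formed feeds alanine and aspartate aminotransferases and glutamine synthetase, and fasted muscle exports its nitrogen largely as alanine and glutamine. GR is a nuclear receptor that glucocorticoids activate during fasting, and LSD1 removes methyl groups from histones.

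The sequences of 6 GR sites on which the results turn are shown: the strongest of Gpt2, Glul, Prodh, Bckdhb and Got1, and the second intronic site of Gpt2. Each line gives the plus strand of GRCm38, 5′ to 3′, of a peak in the GR fed list or of 300 bp within it. Capitals mark the 15 bases closest to the glucocorticoid response element (GRE), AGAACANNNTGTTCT, where they held at most 2 mismatches over the 12 defined bases on either strand. The stretches are, in order, chr8:85513313-85513575, chr8:85515448-85515669, chr1:153901483-153901782, chr16:18083379-18083678, chr9:84093099-84093372 and chr19:43524756-43525055.
Gpt2 intron 6, 20.9 kb downstream: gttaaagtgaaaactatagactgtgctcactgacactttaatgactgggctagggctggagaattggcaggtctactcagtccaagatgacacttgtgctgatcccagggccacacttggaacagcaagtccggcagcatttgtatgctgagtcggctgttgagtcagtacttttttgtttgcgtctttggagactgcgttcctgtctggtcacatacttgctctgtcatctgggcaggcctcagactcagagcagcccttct
Gpt2 intron 6, 23.0 kb downstream: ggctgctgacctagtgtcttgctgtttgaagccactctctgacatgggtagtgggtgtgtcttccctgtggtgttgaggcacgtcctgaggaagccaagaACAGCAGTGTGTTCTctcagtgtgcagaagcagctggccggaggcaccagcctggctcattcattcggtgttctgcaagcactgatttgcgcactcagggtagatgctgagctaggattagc
Glul intron 1: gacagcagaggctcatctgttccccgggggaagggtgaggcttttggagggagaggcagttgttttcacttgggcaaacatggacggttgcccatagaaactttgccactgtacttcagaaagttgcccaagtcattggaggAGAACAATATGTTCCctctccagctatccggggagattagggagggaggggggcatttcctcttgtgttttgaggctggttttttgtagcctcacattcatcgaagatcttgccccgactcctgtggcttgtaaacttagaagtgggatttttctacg
Prodh intron 2: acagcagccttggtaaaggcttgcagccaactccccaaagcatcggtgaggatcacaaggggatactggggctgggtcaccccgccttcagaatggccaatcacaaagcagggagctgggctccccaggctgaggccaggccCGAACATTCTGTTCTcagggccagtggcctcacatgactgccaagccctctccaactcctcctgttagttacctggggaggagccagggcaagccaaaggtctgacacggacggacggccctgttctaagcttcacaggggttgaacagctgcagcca
Bckdhb intron 9: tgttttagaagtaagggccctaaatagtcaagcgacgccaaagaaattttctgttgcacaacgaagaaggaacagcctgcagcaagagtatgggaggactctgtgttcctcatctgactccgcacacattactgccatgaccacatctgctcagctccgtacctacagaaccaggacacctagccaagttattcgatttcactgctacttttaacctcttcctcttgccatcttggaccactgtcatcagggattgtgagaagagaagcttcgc
Got1 promoter: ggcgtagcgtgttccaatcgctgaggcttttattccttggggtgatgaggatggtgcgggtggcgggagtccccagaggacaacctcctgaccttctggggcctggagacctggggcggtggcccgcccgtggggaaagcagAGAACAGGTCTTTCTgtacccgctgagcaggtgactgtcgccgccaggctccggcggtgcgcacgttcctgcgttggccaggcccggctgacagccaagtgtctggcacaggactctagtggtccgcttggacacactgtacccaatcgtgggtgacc
The matches at Glul and Prodh held 1 mismatch and those at Gpt2 and Got1 held 2. The Gpt2 site 20.9 kb downstream of the TSS and the Bckdhb site had none, and their closest stretches held 4 and 3 mismatches.

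Every gene of the set had a GR peak in its window in both conditions. In the GR fed list 10 of 10 genes had at least 1 peak, against 43.1% of all genes, and in the GR starved list 10 of 10, against 66.5%. With only peaks whose nearest TSS was that of the gene, the counts were 7 in fed and 10 in starved muscle. The GR fed peaks of Bckdha, Dbt and Bckdk lay nearest to the TSS of another gene. No share of all genes was computed under that rule. LSD1 peaks were called at 10 of 10 genes in fed muscle (51.1% of all genes) and at 9 of 10 in starved muscle (83.7%), where Dbt had none. With the LSD1 lists at equal length by fold, the counts were 10 of 10 in fed and 4 of 10 in starved muscle. No share of all genes was computed at that length, so the lower starved count cannot be called particular to these genes. In all 4 lists together, 9 of 10 genes had a peak, against 34.4% of all genes. The window measured 60.001 kb, the least that a gene with 1 TSS can have, at 6 of the genes, 61.1 to 66.9 kb at Bcat2, Gpt2 and Dbt, and 229 kb at Bckdhb.

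**Figure D1:**
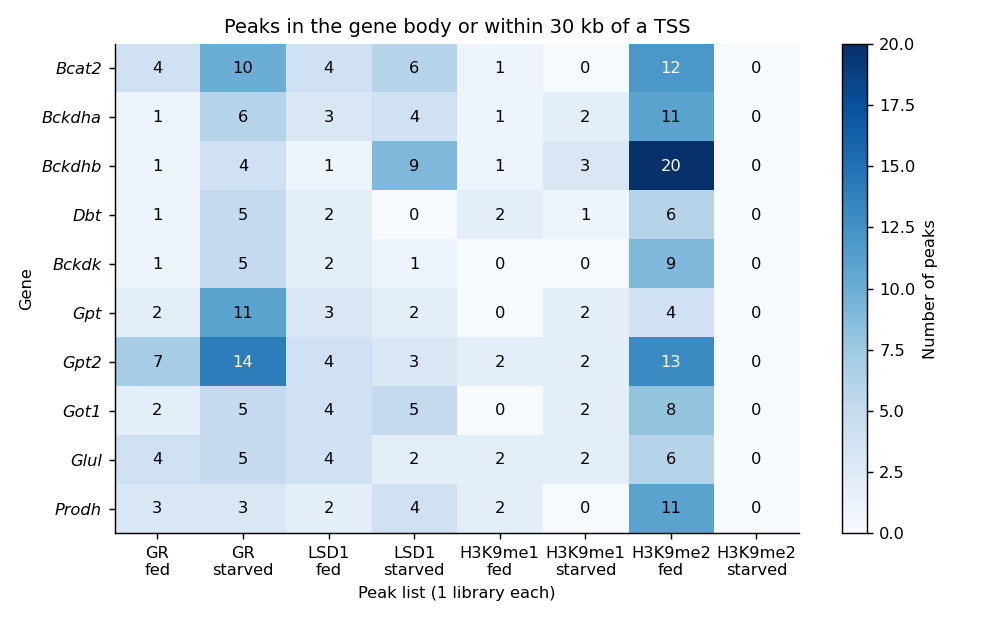
Number of peaks per gene (rows) in each of the 8 lists (columns, 1 library each), counted in the gene body or within 30 kb of a TSS. Gpt2 had the most GR peaks, 7 in the fed and 14 in the starved list, and the H3K9me2 starved column is 0 for every gene.

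The numbers of peaks behind these shares differed between libraries. The GR lists held 14108 peaks in fed and 37783 in starved muscle, the LSD1 lists 16616 and 66332, the H3K9me1 lists 14178 and 38023 and the H3K9me2 lists 171402 and 6624. The GR libraries shared a library code in the labels, as did the LSD1 libraries, whereas for each histone mark fed and starved libraries carried different codes, so condition and code cannot be told apart there. The shortest peak was 117 and 110 bp in the GR lists and 49 to 55 bp in the other 6 lists, and read depth was not known. The tissue label could not be checked by expression. Peaks lay at 12 of 12 muscle marker loci in each GR and LSD1 list, and at 6 to 8 of 8 loci of markers of other cells. The shares of all genes were 43.1% and 66.5% for GR and 51.1% and 83.7% for LSD1, in fed and starved muscle. A fold enrichment of at least 5 in the GR fed list was reached at 6 of the muscle loci and at 0 of the others (7.17% of all genes). The counts were 4 and 0 in the GR starved list (3.37%), and 4 and 1, at Pecam1, in the LSD1 fed list (5.77%). In the LSD1 starved list they were 0 and 0 (1.20%). At such shares few or none of 8 loci would be called.

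High enrichment was limited to a few of the genes. Peaks with a fold enrichment over input of at least 5 were found at Gpt2, Glul and Prodh in the GR fed list (3 of 10 genes, 7.17% of all genes) and at the same 3 genes in the GR starved list (3.37% of all genes). Only 84 of all genes (0.321%) had a highest GR fed fold at least as high as that of Gpt2. The share was 1.21% for Glul, 3.10% for Prodh, 10.7% for Bckdhb and 13.6% for Got1, and lay between 20.4% and 42.6% for the other 5. In starved muscle it was 0.661% for Gpt2, 2.60% for Glul and 2.64% for Prodh. Bcat2, the genes of the dehydrogenase complex, its kinase, Gpt and Got1 thus had no GR peak of that strength. The highest GR folds were those of 3 nitrogen genes. Bckdhb, with 4.35 in the fed list, stood above the nitrogen genes Got1 (4.02) and Gpt (3.43). At a q-value of 0.01 or less, 8 of 10 genes kept a GR fed peak (33.6% of all genes, lost at Bckdha and Bckdk) and 9 of 10 a GR starved peak (40.6%, lost at Dbt).

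**Figure D2:**
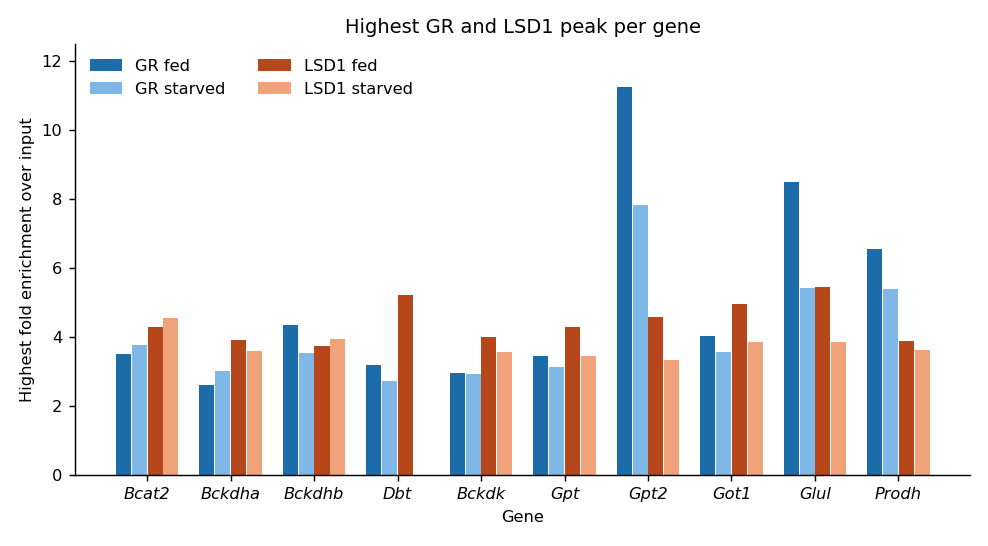
Highest fold enrichment over input (linear axis from 0) among the peaks of each gene, for GR and LSD1 in fed and starved muscle, 1 library each. Gpt2, Glul and Prodh exceed 5 in both GR lists, and Dbt has no bar for LSD1 starved because no peak was called.

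Bcat2 (chr7:45570153-45589710, plus strand), the mitochondrial aminotransferase that starts the pathway, had 4 GR peaks in the fed list and 10 in the starved list. Its strongest GR peak lay 1.89 kb upstream of the TSS, in an exon of the non-coding gene 0610005C13Rik. The fold there was 3.50 in fed and 3.76 in starved muscle. LSD1 fed peaks of fold 4.30 and 3.93 overlapped the GR starved peak, and the second of them the GR fed peak. The Bcat2 promoter, taken as 1000 bp upstream to 100 bp downstream of a TSS, carried GR at fold 2.90 fed and 2.61 starved, and LSD1 at 3.88 in fed muscle alone. None of the 6 LSD1 starved peaks lay within 5 kb of the TSS. Their strongest, of fold 4.55, lay 28.3 kb upstream and was nearest to the TSS of Plekha4.

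Bckdha (chr7:25629852-25658761, minus strand), the E1 alpha subunit of the dehydrogenase complex, shares its promoter region with Exosc5. A GR fed peak of fold 2.61 lay 0.242 kb upstream of its TSS, and a GR starved peak of fold 2.53 overlapped it. The highest GR starved fold, 3.02, was measured 0.598 kb into Bckdha, at a promoter of Exosc5. LSD1 was called at the shared promoter with fold 3.91 in fed and 3.43 in starved muscle. The GR fed peak ranked 13846 of 14108 by fold, and binding at this shared start cannot be assigned to Bckdha or to Exosc5.

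Bckdhb (chr9:83925137-84124240, plus strand), the E1 beta subunit, was the longest gene of the set. Its single GR fed peak lay in intron 9, 144 kb downstream of the TSS, with a fold of 4.35, rank 2487 of 14108. A GR starved peak of fold 3.53 and an LSD1 fed peak of fold 3.73 overlapped it. A GR promoter peak of fold 2.83 was called in the starved list alone, and LSD1 had 1 peak in fed and 9 in starved muscle, the latter with folds of at most 3.95. No LSD1 starved peak overlapped the intron 9 site.

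Dbt (chr3:116513070-116549981, plus strand) encodes the E2 transacylase core of the complex. Both its GR fed peak, of fold 3.18, and its strongest LSD1 fed peak, of fold 5.22, lay about 5 kb upstream, at the start of the neighbouring gene Rtca. At Dbt itself an LSD1 fed peak of fold 3.51 lay 0.127 kb into the gene and a GR starved peak of fold 2.52 lay 0.259 kb into it. The highest GR starved peak, of fold 2.72, lay in intron 3 of Dbt, 15.6 kb downstream, and that at the start of Rtca had a fold of 2.55. The highest values in the fed lists thus lay at Rtca, and that of the GR starved list in Dbt.

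Bckdk (chr7:127904073-127909664, plus strand), the kinase that inhibits the complex, lies in a region with the TSS of 6 other genes in its window. Its GR fed peak, of fold 2.94, was in an intron of Kat8, 11.6 kb downstream, and no GR starved peak overlapped it. The highest GR starved fold was also 2.94, 6.16 kb upstream and nearest to the TSS of Vkorc1. Near its own TSS, intron 1 held an LSD1 fed peak of fold 4.01 at 0.112 kb and a GR starved peak of fold 2.68 at 0.178 kb. GR at the start of Bckdk was thus called in the starved list alone, at a low fold.

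Gpt and Gpt2 encode the cytosolic and the mitochondrial alanine aminotransferase, which form alanine from pyruvate, and their GR profiles differed in these lists. Gpt (chr15:76696726-76699675, plus strand) had 2 GR peaks in the fed and 11 in the starved list, in a window with the TSS of 7 other genes. A GR peak covered its promoter with fold 3.43 in fed and 3.12 in starved muscle, and no LSD1 peak had its midpoint in the promoter. An LSD1 starved peak of fold 3.08, 1.62 kb upstream, overlapped the GR starved peak, and another of fold 3.45 overlapped a GR starved peak of fold 2.45 in intron 5. The highest LSD1 fed fold, 4.28, was measured 14.0 kb downstream, at the promoters of Recql4 and Lrrc14.

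Gpt2 (chr8:85492576-85528902, plus strand) had 7 GR peaks in fed and 14 in starved muscle, with no other TSS in its window. The intron 6 peak at 20.9 kb, with fold 11.3, ranked 61 of 14108 in the GR fed list, and the starved library gave 5.82 there. The second intron 6 peak, at 23.0 kb, ranked 313 and gave 7.91 in fed and 7.84 in starved muscle. Peaks in a coding exon at 28.9 kb and in intron 11 at 31.7 kb gave 7.65 and 5.15 in fed muscle, and 5.20 and 6.67 in starved muscle. The order of the 4 sites therefore differed between the libraries, with the 20.9 kb site highest in the fed and the 23.0 kb site highest in the starved library. LSD1 fed peaks of fold 4.57 and 3.71 overlapped the intron 6 sites, and no LSD1 starved peak did. At 28.9 kb the GR starved peak, 1737 bp wide, was overlapped by an LSD1 starved peak at 28.2 kb of fold 3.06 (q = 0.0748), rank 65019 of 66332. That LSD1 peak did not overlap the GR fed peak of this site, and at 31.7 kb no LSD1 peak was called. The Gpt2 promoter had an LSD1 peak in fed muscle alone, of fold 3.57, and a GR peak in starved muscle alone, of fold 2.62. The intron 11 peak is closer to the TSS of Dnaja2 than to that of Gpt2.

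Got1 (chr19:43499752-43524605, minus strand), the cytosolic aspartate aminotransferase, was marked at its promoter by GR and LSD1 in both conditions. The GR fold was 4.02 in fed and 3.57 in starved muscle. LSD1 fed peaks of fold 4.10 and 3.50 overlapped the GR fed peak. The LSD1 starved peak was weak, with a fold of 2.99 (q = 0.0942), rank 65347 of 66332. The strongest LSD1 fed peak, of fold 4.97, lay 2.77 kb upstream. A GR starved peak of fold 2.89 lay 2.11 kb upstream.

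Glul (chr1:153899929-153909723, plus strand), glutamine synthetase, had a GR site in intron 1, a distal site and a promoter site. The intron 1 site, 1.67 kb downstream of the TSS, gave a GR fold of 8.49 in fed muscle, rank 233 of 14108, and 5.43 in starved muscle, with LSD1 at 4.11 in fed muscle alone. The intergenic site at 22.7 kb gave 5.00 in fed and 4.06 in starved muscle for GR, and 5.46 (q = 2.23e-05) and 3.84 for LSD1. At the promoter GR gave 3.10 and 3.00 and LSD1 3.97 and 3.65. The distal site and the promoter were thus called in all 4 lists, whereas the intron 1 site had no LSD1 starved peak.

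Prodh (chr16:18071726-18089190, minus strand), the dehydrogenase that begins proline breakdown, had 3 GR peaks in each condition. The intron 2 site, 5.90 kb downstream of the TSS, ranked 643 and gave 6.54 in fed and 5.40 in starved muscle, with LSD1 at 3.74 in fed muscle alone. The GR promoter peak was weak, with 2.75 in fed and 2.71 in starved muscle. The remaining peak lay at the start of Dgcr6, downstream of Prodh.

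**Figure D3:**
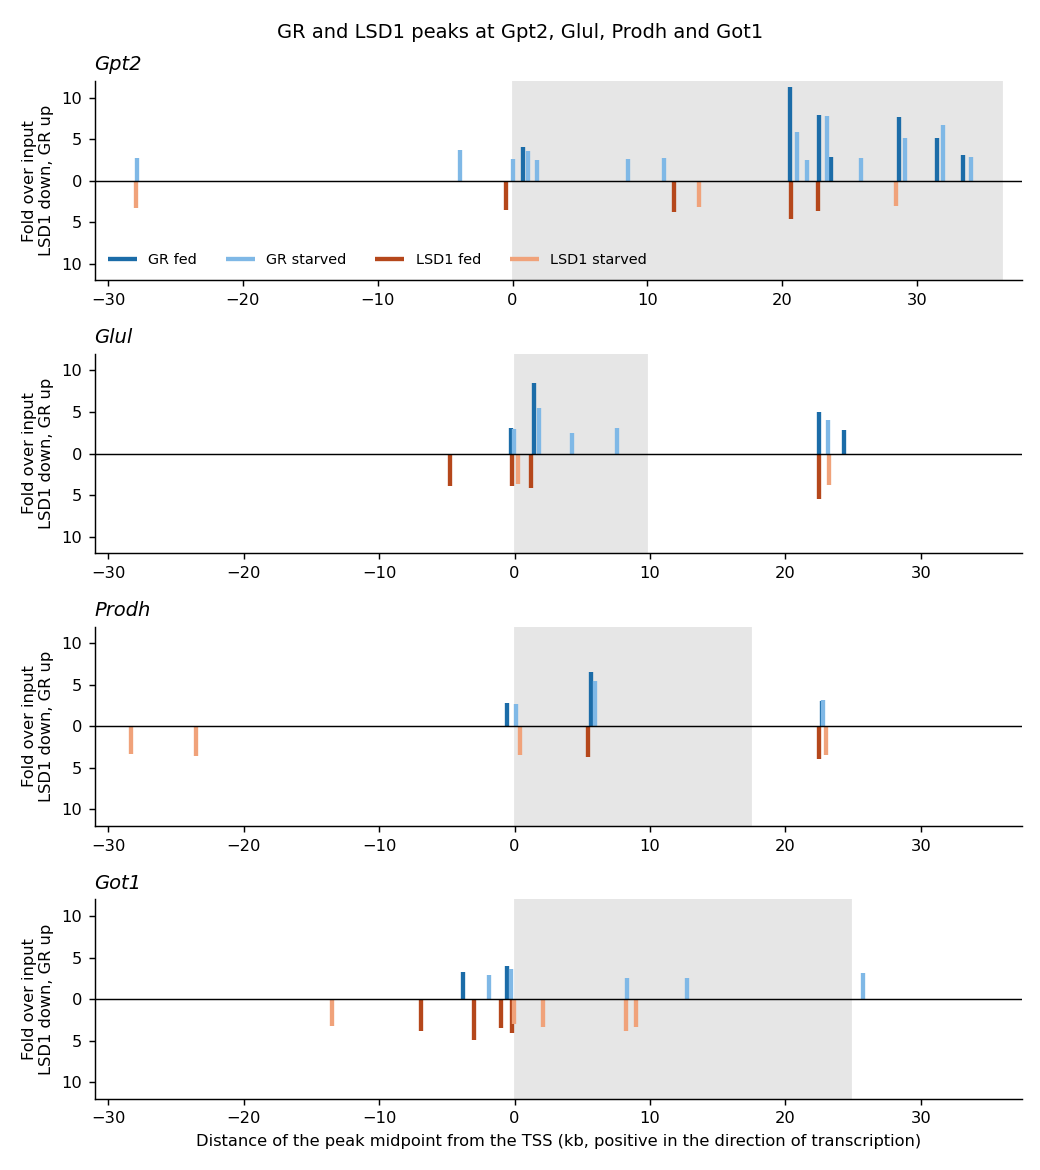
Fold enrichment over input of GR peaks (upward) and LSD1 peaks (downward) against the distance of the peak midpoint from the TSS in kb, at Gpt2, Glul, Prodh and Got1. Grey marks the gene body, 1 library stands behind each color, and fed and starved bars are set slightly to either side of the midpoint so that both can be seen. The highest GR bars lie inside Gpt2, Glul and Prodh. LSD1 fed bars stand at both intron 6 sites of Gpt2, intron 1 of Glul and intron 2 of Prodh, and an LSD1 starved bar stands near the 28.9 kb site of Gpt2.

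Across the set 26 GR peaks were called in the fed and 68 in the starved library, or 2.62 times as many, and for peaks in the window of any gene the ratio was 2.60. Peaks with a q-value of at most 0.01 numbered 18 and 26, a ratio of 1.44 against 1.32 for any gene. The surplus of GR starved peaks at the members was of the size seen over all genes, and the strong sites were not part of it. The 47 GR starved peaks without an overlapping GR fed peak had a median fold of 2.62 and a highest of 3.70, whereas the 21 with one had a median of 3.53. No such values were computed for the whole GR starved list, so this contrast cannot be called particular to the members. Of the GR starved peaks, 39 of 68 had a member's TSS as their nearest TSS, and of the GR fed peaks 17 of 26, so other peaks lay closer to a neighbouring gene.

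Most fed GR sites were called again after starvation. A GR starved peak overlapped 21 of 26 GR fed peaks by at least 1 bp (80.8%, exact 95% CI 60.6 to 93.4, for counting error only), against 65.8% of the whole list, and this held at 9 of 10 genes (34.6% of all genes), the exception being Bckdk. The fold was lower in the starved library at 18 of the 21 sites. The median ratio of starved to fed fold was 0.903, against 0.878 over all overlapping GR sites, of which 78.7% were lower in the starved library. Above a fold of 5 the whole list gave 0.695, with sites chosen on the fed fold itself, so lower starved folds at strong sites were seen in these libraries well beyond the members. The ratio was 0.517 at the 20.9 kb site of Gpt2 and 0.639 in intron 1 of Glul. It exceeded 1 at the intron 11 site of Gpt2 (1.29), upstream of Bcat2 (1.08) and at Dgcr6 near Prodh (1.05).

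**Figure D4:**
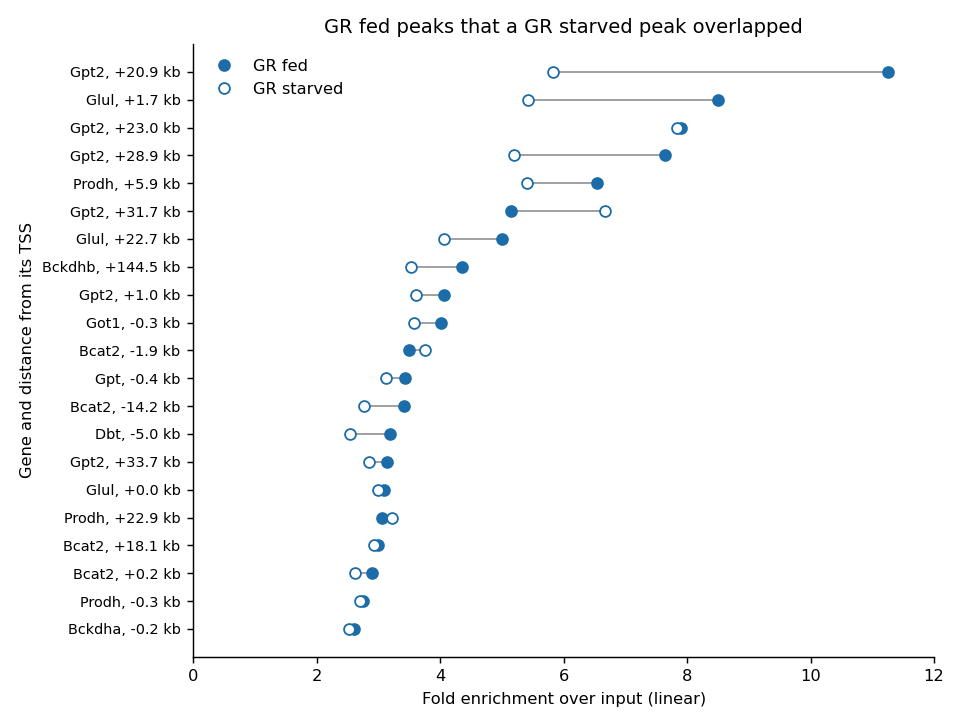
GR fold enrichment over input (linear) at the 21 GR fed peaks that a GR starved peak overlapped, by gene and distance from its TSS in kb. Filled points are the fed and open points the starved library, 1 library each, and the open point lies to the left at 18 of the 21 sites.

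For LSD1 the numbers of peaks at these genes lay closer together than for GR, and high-confidence peaks were mostly in the fed list. The fed list held 29 and the starved list 36 of its peaks, 1.24 times as many, whereas the ratio was 2.91 for peaks in the window of any gene. Peaks with a q-value of at most 0.01 numbered 12 and 2, a ratio of 0.167 against 0.682 for any gene. Genes with such a peak were 7 of 10 in fed muscle (32.4% of all genes, all but Bckdha, Bckdhb and Prodh) and 2 of 10 in starved muscle (24.0%). The study's text gives a far smaller number of LSD1 peaks in starved muscle than the deposited list holds, so these values apply to that list alone. The 2 starved peaks lay far upstream of Bcat2 and at the Kat8 promoter near Bckdk, not at a member's own TSS. At a fold of at least 5 the LSD1 fed list had peaks at Dbt and Glul (2 of 10 genes, 5.77% of all genes) and the starved list at 0 of 10 (1.20%). With 10 genes and 1 library per condition these counts describe the libraries, and the median LSD1 fold at the members, 3.89 fed and 3.43 starved, was close to those of the whole lists, 4.03 and 3.44.

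Of the LSD1 fed peaks, 6 of 29 were overlapped by an LSD1 starved peak (20.7%, exact 95% CI 7.99 to 39.7), against 23.1% of the list. They lay at the promoters of Bckdha, Got1 and Glul, at the distal Glul site, and at the promoters of Kat8 and Dgcr6. The intronic GR sites of Gpt2, Glul, Prodh and Bckdhb were not among them. The peak lengths of the LSD1 lists were short, and their part in these overlaps was not tested.

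GR and LSD1 shared many sites in fed muscle. LSD1 fed peaks overlapped 14 of 26 GR fed peaks (53.8%, exact 95% CI 33.4 to 73.4), against 48.3% of the list, at 8 of 10 genes (29.5% of all genes), with Bckdk and Gpt as the exceptions. In starved muscle LSD1 overlapped 10 of 68 GR peaks (14.7%, exact 95% CI 7.28 to 25.4), against 14.7% of the list, at Bckdha, Gpt, Gpt2, Got1, Glul and Prodh (6 of 10 genes, 27.7% of all genes). With both lists at q-values of at most 0.01, it overlapped 0 of 26, and no share of the whole list was computed at that limit. Only 2 LSD1 starved peaks at the members passed it, and neither overlapped a GR starved peak in the full lists. The zero therefore followed from the filter. Without that limit the members' shares of peaks stood near those of the whole lists. Among the 10 GR fed peaks of fold 4 or more, a limit chosen after the values were seen, 10 were overlapped in the GR starved list, 7 in the LSD1 fed list and 2 in the LSD1 starved list. Among all 3377 GR fed peaks of that fold the first share was 82.6% and the second 56.0%, and LSD1 starved overlapped 643.

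Promoter occupancy by GR was common at these genes. Promoter peaks were called at 6 of 10 genes in the GR fed list (13.4% of all genes: Bcat2, Bckdha, Gpt, Got1, Glul and Prodh) and at 8 of 10 in the GR starved list (23.3%), with Bckdhb and Gpt2 added. In both lists only the GR promoter peaks of Gpt, Got1 and Glul had a q-value of 0.01 or less. Those added at Bckdhb (q = 0.0151) and Gpt2 (q = 0.0258) did not. No share of all genes was computed for promoter peaks at that limit. For LSD1 they were called at 5 of 10 genes in fed muscle (22.4%: Bcat2, Bckdha, Gpt2, Got1 and Glul) and at 4 of 10 in starved muscle (16.2%: Bckdha, Bckdhb, Got1 and Glul). Within 1 kb of a TSS on either side, the counts were 6 of 10 (17.1%) and 10 of 10 (31.3%) for GR, and 7 of 10 (27.8%) and 5 of 10 (22.3%) for LSD1, in fed and starved muscle. Got1 and Glul, with Bckdha, were the genes with a promoter peak in all 4 lists. None of their LSD1 starved promoter peaks had a q-value of 0.01 or less. The highest GR promoter fold, 4.02 at Got1, was below the highest intronic folds of Gpt2, Glul and Prodh.

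GRE-like sequences were found in a minority of the GR peaks. Within 300 bp around the midpoint, 3 of 26 GR fed peaks held one with at most 2 mismatches (11.5%, exact 95% CI 2.45 to 30.2), against 8.23% of the list, and 5 of 68 GR starved peaks did (7.35%, exact 95% CI 2.43 to 16.3), against 3.44%. At a fold of at least 5 the counts were 2 of 7 fed peaks (24.1% of such peaks in the list) and 3 of 6 starved peaks (20.8%). The match in Prodh intron 2 lay 236 bases from the midpoint of the wide fed peak, outside the 300 bp, and 12 bases from that of the starved peak. The motif of nuclear respiratory factor 1 (NRF1), GCGCATGCGC, was found without mismatch in 0 of 29 LSD1 fed peaks (0.845% of the list) and 0 of 26 GR fed peaks (0.540%). By the exact interval these zeros allow shares of up to 11.9% and 13.2%, so shares like those of the lists were not detectable. Of the 68 GR starved peaks 1 held the motif without mismatch (1.47%, exact 95% CI 0.0372 to 7.92, against 0.383% of the list), namely the peak at the shared promoter of Bckdha and Exosc5. The midpoint of this peak lay 0.246 kb upstream of the Bckdha TSS, and that of the overlapping GR fed peak 0.242 kb. The 300 bp around the fed midpoint held no stretch with fewer than 3 mismatches. The difference between the 2 peaks thus turned on the edge of the searched 300 bp. RefSeq promoter sequences (GRCm38, 300 bases around the start) matched 8 of 10 genes, not Gpt and Dbt, and none of their 10 promoters held either motif, against 1.84% and 0.971% of all 32851 promoters.

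The histone marks gave fewer values that bear on these genes. H3K9me1 peaks were called at 7 of 10 genes in fed muscle (38.0% of all genes) and at 7 of 10 in starved muscle (65.6%), with 11 and 14 peaks. With lists of equal length the starved count was 3 of 10, with no share of all genes computed at that length. The highest H3K9me1 fold, 5.22, was measured in the starved list in intron 7 of Dbt, nearest to the TSS of Lrrc39. H3K9me2 peaks were called at 10 of 10 genes in fed muscle (95.5% of all genes), 100 peaks in all, and at 0 of 10 in starved muscle (10.2%). With fed and starved lists of equal length by fold, the fed count was 1 of 10, so the contrast moved with the length of the lists. For this count too, no share of all genes was computed. In promoters H3K9me2 was called at 6 of 10 genes in fed muscle (22.3% of all genes). The highest H3K9me2 fold, 5.18, was measured in the Prodh window at the promoter of Dgcr6, and the highest inside Prodh was 4.38, in intron 11. The windows of the other 9 genes ranged up to 4.08. H3K9me2 fed peaks overlapped 7 of 29 LSD1 fed peaks (24.1%, exact 95% CI 10.3 to 43.5), against 16.8% of the list, and 4 of 26 GR fed peaks (15.4%, exact 95% CI 4.36 to 34.9), against 16.5%. Condition and library code cannot be told apart for both marks.

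Other enzymes of these pathways were counted in the same lists. Of 23 further branched-chain amino acid genes, GR was called at 17 in fed muscle (43.1% of all genes) and at 21 in starved muscle (66.5%), and LSD1 at 16 (51.1%) and 20 (83.7%). A GR fold of at least 5 was reached at 0 of the 23 in either condition, against 7.17% of all genes in fed and 3.37% in starved muscle, shares at which few or none of 23 genes would be called. Of 15 further nitrogen genes, GR was called at 8 and 12 and LSD1 at 10 and 13. Among these, 1 gene, Oat, reached a GR fold of 5 in both conditions, with 8.79 in fed muscle. Oat encodes ornithine aminotransferase, and its peak was closer to the TSS of Lhpp. The next highest GR folds were 4.40 at Adssl1, 4.27 at Ampd1, 4.14 at Auh and 4.03 at Pcca in fed muscle, and 4.12 near Pycr1 in starved muscle, in an intron of Mafg. Adssl1 and Ampd1 act in the purine nucleotide cycle, Auh in leucine breakdown and Pcca in the route of propionate from isoleucine and valine.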

How the data were processed

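ChIP-seq peak lists of GR, LSD1, H3K9me1 and H3K9me2 in fed and starved mouse skeletal muscle were used, 1 library each, grouped by the labels. According to the methods, the authors mapped reads to mm10 (GRCm38) with Bowtie, although peak names carry Bowtie2, kept uniquely mapped reads, removed a blacklist named for the human genome and called broad peaks with MACS2 against input. The submitters' notes name bcl2fastq 2.20.0.422. For each peak the deposited fold enrichment over input (a ratio) and the deposited −log10 of the q-value were used. The deposited q-values reached 0.0974 in the GR fed list, above the threshold of 0.01 that the methods state. The deposited LSD1 starved list is far longer than the number of peaks that the text of the study gives, and longer than the fed list where that text gives fewer peaks, so it may be another version. The deposited score was not used.

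Gene bodies and TSS came from curated RefSeq transcripts of GRCm38 (45756 transcripts of 26180 genes). Peak midpoints were assigned to windows of 30 kb, and overlaps needed 1 bp. Motifs were searched on both strands. Exact (Clopper-Pearson) 95% intervals cover counting error only, and the read depth behind each value is unknown. Assignment and overlap were checked on simulated peaks. Python 3.11.15, pandas 2.3.3 and scipy 1.17.1 were used.

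The rule was to name all 10 genes with their promoter peaks, highest peaks and shared GR and LSD1 sites. The text gives those of GR and LSD1 that carry a comparison. At most 6 further pathway genes are named, those with the highest GR fold. The genes, lists and limits were chosen with earlier results of these data known. Alternatives were q-values of 0.01 and 1e-05, a fold of 5, other windows, lists of equal length and other overlap and motif rules.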

Additional observations from a re-analysis of the deposited data

How the results depend on the processing

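Of 84 values recomputed, 55 stayed within 1.5 times the reported count or inside the interval of the reported share, and 29 moved further. The number of the 10 genes with a peak moved most with a stricter minimum. At a q-value of 1e-05 or less it was 6 for GR fed and 6 for GR starved, and 0 for LSD1 fed, LSD1 starved, H3K9me1 fed, H3K9me1 starved and H3K9me2 fed. At 0.01 or less it was 2 for LSD1 starved. At a fold of at least 5 it was 3 for both GR lists, 2 for LSD1 fed, 0 for LSD1 starved and H3K9me1 fed, and 1 for H3K9me1 starved and H3K9me2 fed. In promoters alone it was 6 for GR fed, 5 for LSD1 fed, 4 for LSD1 starved, 1 for H3K9me1 fed and H3K9me1 starved, and 6 for H3K9me2 fed. Within 1 kb of a TSS on either side, an alternative chosen after seeing the data, it was 6 for GR fed and 5 for LSD1 starved. Within 10 kb it was 4 for H3K9me1 fed. With fed and starved lists of equal length by fold it was 4 for LSD1 starved, 3 for H3K9me1 starved and 1 for H3K9me2 fed, without a share of all genes beside these counts. The share of GR starved peaks overlapped by LSD1 starved was 0% at q-values of 0.01 or less. The share of LSD1 fed peaks with an NRF1 motif was 13.8% with at most 1 mismatch (4 of 29), against 5.77% of the list. The exact interval, 3.89 to 31.7%, included the share of the list. These 4 peaks lay in intron 1 of Bckdk and at the promoters of the neighbouring genes B9d2, Rtca and Dgcr6. Stricter settings hold fewer peaks by construction. No share of all genes was computed at a q-value of 1e-05, within 10 kb, for H3K9me1 in promoters or for the histone marks at a fold of 5. Those counts describe the lists and cannot be called particular to these genes. No paired analysis was possible because each antibody and condition had 1 library, and for the same reason no library could be left out. Without read depth, low folds cannot be given an error.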
